A study of Mus musculus with 6 samples.

Results

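In primary fibroblasts with and without the histone acetyltransferase gene Hat1, 10 genes were examined. These hold cells out of the division cycle, oppose that hold or mark that state. They were chosen by name: the cyclin-dependent kinase (CDK) inhibitor genes Cdkn2a, Cdkn2b, Cdkn2c, Cdkn2d, Cdkn1a and Cdkn1b, the p53 gene Trp53, its antagonist Mdm2, the retinoblastoma gene Rb1 and the β-galactosidase gene Glb1. These 10 were found by symbol among 17512 genes with read counts, and all 10 were among the 14773 that passed the filter on low counts.

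RNA-seq was performed on 6 lines of primary mouse embryonic fibroblasts (pMEFs), all on the C57bl6 background, grown in the same medium and given no treatment named in the labels. Lines 36, 47 and 78 were HAT1 WT and lines 33, 41 and 72 were HAT1 KO, that is labelled as knocked out for Hat1. The methods describe pMEFs grown from whole embryos after the inner organs were removed and passaged whenever they were confluent. The passage at which each line was taken is not given in the sources used here. Each line counted as 1 replicate, and nothing in the labels says whether embryos shared a litter, so a p-value measures only the spread between these lines.

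The cell cycle is held before S phase when CDK inhibitors block the kinases that phosphorylate the retinoblastoma protein. INK4 inhibitors bind CDK4 and CDK6, whereas CIP/KIP inhibitors bind complexes of cyclins with CDKs more broadly. The unphosphorylated retinoblastoma protein keeps E2F factors from turning on genes for DNA replication. In a parallel arm the Arf protein blocks Mdm2, the ligase that marks p53 for destruction, and p53 then activates Cdkn1a and Mdm2 itself. Mouse embryonic fibroblasts are known to enter senescence within a limited number of passages in ordinary culture, with rising Ink4a and Arf, and senescent cells are often stained for the lysosomal β-galactosidase that Glb1 encodes.

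Cdkn2a, on the minus strand of chromosome 4 between positions 89274471 and 89294653 of GRCm38, is the gene with the widest spread here, and it makes a pair of unrelated proteins. One coding transcript of the GENCODE annotation starts at the exon of Ink4a and the other at the exon of Arf, further upstream. They share 575 bases, which is 67.5% of the 852 bases of the Ink4a transcript and 64.2% of the 895 bases of the Arf transcript, so a count for the gene cannot tell Ink4a from Arf. The sequences before both starts are shown because each arm of the pathway depends on its own start, and that before the upstream start of Cdkn1a because it holds p53 words. Sequences cover up to 150 bases before a start, without exon bases, and are from RefSeq (GRCm38.p6), on the strand of the gene. Capitals mark an E2F word or a p53 decamer (the 10-base unit of the p53 recognition element).
Cdkn2a before the Arf start (chr4:89294654-89294769, minus strand): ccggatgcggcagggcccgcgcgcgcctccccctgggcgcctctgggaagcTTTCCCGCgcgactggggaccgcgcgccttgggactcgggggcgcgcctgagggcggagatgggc
Cdkn2a before the Ink4a start (chr4:89282193-89282342, minus strand): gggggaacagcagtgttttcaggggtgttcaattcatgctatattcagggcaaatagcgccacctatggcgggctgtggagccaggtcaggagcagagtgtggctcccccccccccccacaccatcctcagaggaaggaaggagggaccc
Cdkn1a before its upstream start (chr17:29090829-29090975, plus strand): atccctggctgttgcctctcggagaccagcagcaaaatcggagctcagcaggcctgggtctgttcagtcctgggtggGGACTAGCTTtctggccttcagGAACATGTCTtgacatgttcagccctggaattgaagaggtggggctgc

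RefSeq starts were matched by symbol for 9 of the 10 genes (Rb1 was not analysed here), and the 250 bases before each were searched on both strands. The E2F words searched (TTTCCCGC, TTTGGCGC, TTTGCCGC and TTTCGCGC) occurred before 1.86% of 32851 starts in the genome, and among these genes only before the Arf start, beginning 99 bases from it. The p53 decamer occurred before 7.13% of all starts. Here it was found at 73 and 51 bases before the upstream start of Cdkn1a, with no overlap between the matches, at 75 bases before Trp53, at 102 bases before the first start of Cdkn2d and at 186 bases before Mdm2. These matches describe letters in a window, and no binding was measured.

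Total counts ran from 67720628 to 98786746 per library. The targeted gene Hat1 was at 17.4, 23.0 and 20.1 CPM (counts relative to library size, scaled by TMM, the trimmed mean of M-values) in WT lines 36, 47 and 78 and at 10.2, 10.0 and 10.3 CPM in KO lines 33, 41 and 72. Its log2 fold change was -0.99 (adjusted p = 0.0376, edgeR's quasi-likelihood test), and the counts do not separate deleted exons from the rest. Over 14 alternatives the fold change stayed between -1.10 and -0.87, while the adjusted p was above 0.05 in 8 of them, KO line 72 left out among these (highest 0.529). KO line 72 stood apart, with a mean Pearson correlation of 0.958 with the other 5 libraries against 0.974 to 0.979 for each of those, so the results of the 10 genes are given with and without it. Summed counts of 4 Y-linked genes were 13788 and 12841 in WT lines 36 and 47, 231 in WT line 78 and at most 8 in the KO lines, so the 2 lines with high counts were both WT and this measure was not balanced between the genotypes. The sequencing lane was 8 for WT line 36, 7 for WT line 78 and KO line 41, and 6 for WT line 47 and KO lines 33 and 72. Fibroblast genes were abundant, with 11 of 11 listed markers tested and a summed level of 57750 to 89818 CPM per line, led by the collagen gene Col1a1.

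Compared per kilobase of exon, the 10 genes covered a wide range in the WT lines. Cdkn1a was highest, with 102 ± 14.5 CPM per kilobase (SD, n = 3 for this and the following means). Cdkn2a followed with 52.0 ± 10.3 and Cdkn2b with 42.2 ± 5.25 CPM per kilobase, and the ranges of these neighbours overlapped. The next group was Glb1 at 22.9 ± 2.87, Trp53 at 19.9 ± 1.54 and Mdm2 at 18.4 ± 1.07 CPM per kilobase, again with overlapping ranges from one to the next. Cdkn1b was at 10.3 ± 0.651 CPM per kilobase, below all of these. Cdkn2c at 6.40 ± 0.574 and Cdkn2d at 5.38 ± 0.545 CPM per kilobase overlapped each other. Rb1 was lowest at 4.37 ± 0.178 CPM per kilobase. In the KO lines the order was the same except that Trp53 stood above Glb1 and Cdkn2d above Cdkn2c.

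The comparison of the genotypes asked whether any of these genes was expressed differently without Hat1. None of the 10 passed an adjusted p of 0.05 in edgeR's quasi-likelihood test, beside 0.528% of all genes tested, and their adjusted p-values ran from 0.126 to 0.998. DESeq2 called 1 of them, beside 5.9% of all genes, and voom called 0. At an unadjusted p under 0.05 there were 2 of 10, Cdkn2d and Rb1, against 14.6% of all genes. The same 2 were those whose WT and KO lines did not overlap, against 22% of all genes, so neither share stood far from its background. The fold change was above 0 for 5, as for 51.5% of all genes, and below 0 for 5, with a median of -0.0050 on the log2 scale against 0.0085 for all genes tested.

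**Figure D1:**
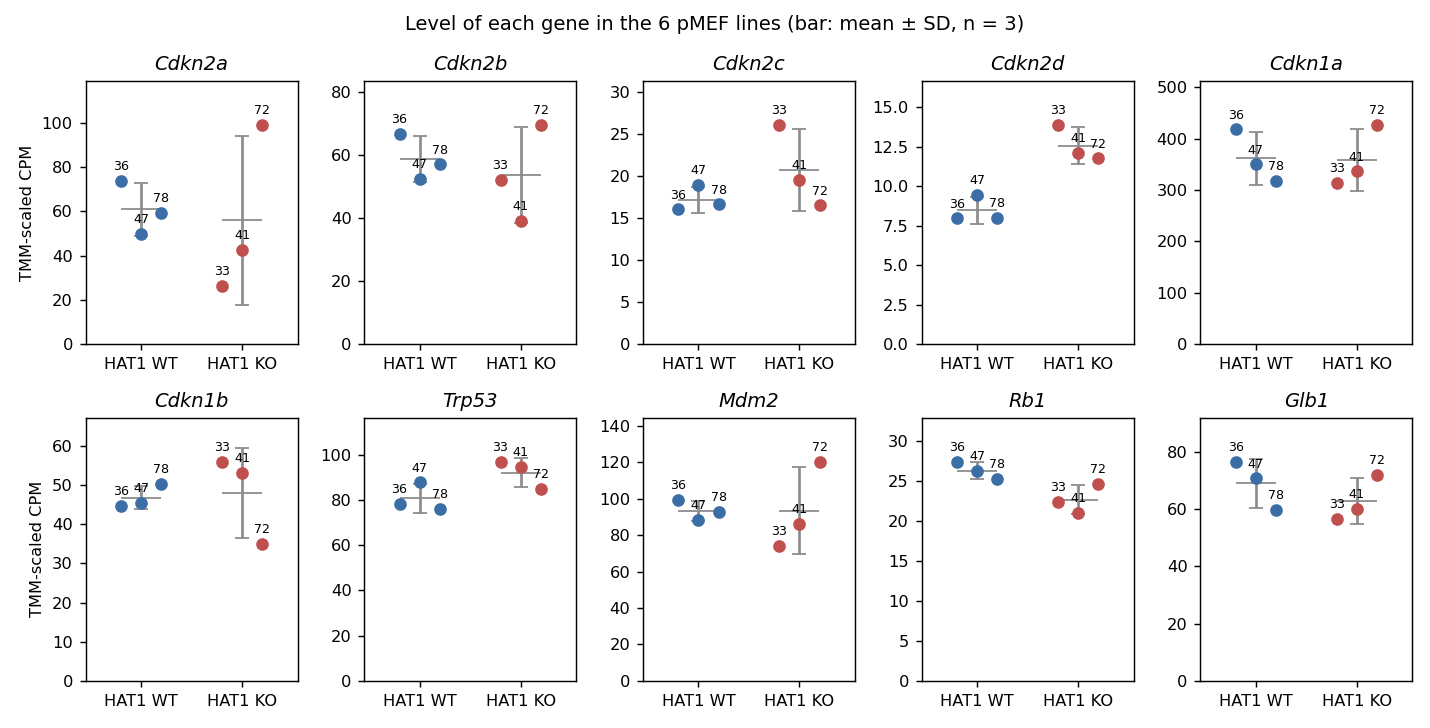
Level of each of the 10 genes in TMM-scaled CPM in the 3 HAT1 WT lines (blue) and the 3 HAT1 KO lines (red), numbered by line, with the mean and SD of each genotype as grey bars. Only Cdkn2d and Rb1 separate the genotypes, and KO line 72 (red, right) is the highest line for Cdkn2a, Cdkn2b, Cdkn1a and Mdm2 and the lowest for Cdkn1b.

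Leaving out KO line 72 altered this picture more than leaving out any other line. Without it, 6 of the 10 had an unadjusted p under 0.05 (Cdkn2a, Cdkn2c, Cdkn2d, Cdkn1b, Trp53 and Rb1), against 18.5% of all genes in that fit. Still none passed an adjusted p of 0.05, beside 0.485% of all genes, with adjusted p-values from 0.118 to 0.604. The median of the 10 was then -0.18 on the log2 scale, with 4 above 0 and 6 below. Leaving out WT line 36, WT line 78, KO line 33 or KO line 41 left 1 of 10 at an unadjusted p under 0.05.

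**Figure D2:**
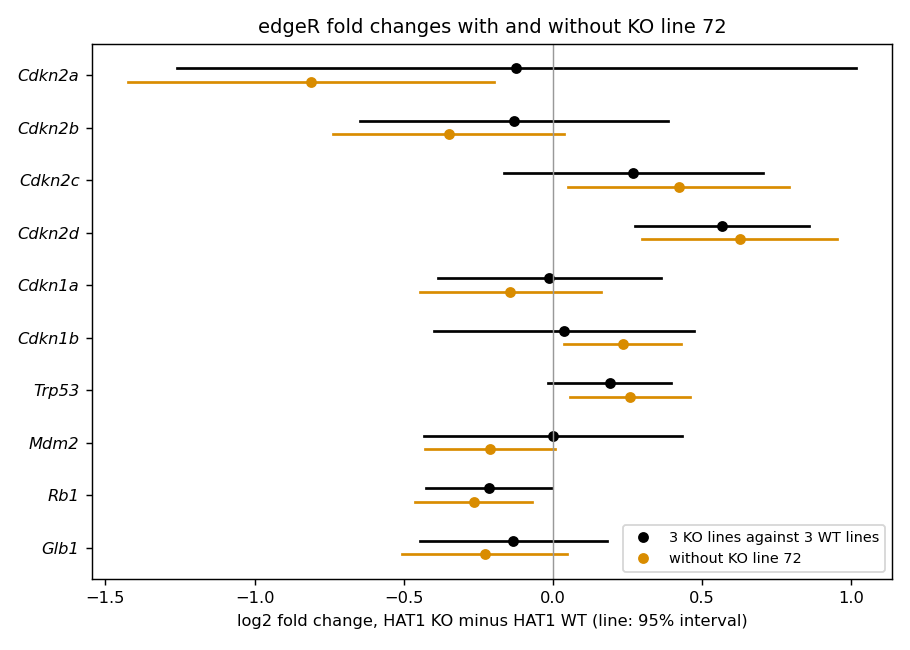
Log2 fold change (HAT1 KO minus HAT1 WT) of each gene from edgeR with its 95% interval, for all 6 lines (black) and without KO line 72 (orange). The interval of Cdkn2a runs from -1.26 to 1.02 with all lines and from -1.42 to -0.20 without line 72, whereas that of Cdkn2d lies above 0 in both.

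Among the INK4 genes, Cdkn2d, which encodes the inhibitor p19Ink4d and lies on chromosome 9 (21288410 to 21291407, minus strand, GRCm38), had the smallest p-value. It was at 7.96, 9.46 and 8.004 CPM in WT lines 36, 47 and 78 and at 13.9, 12.1 and 11.7 CPM in KO lines 33, 41 and 72. All KO lines were above all WT lines, and the lines of each genotype lay close together. Mean levels were 8.47 ± 0.858 CPM in WT and 12.6 ± 1.14 CPM in KO (SD, n = 3 each). The log2 fold change was 0.57, with a standard error (SE) of 0.12 and a 95% interval from 0.28 to 0.86. The adjusted p was 0.126 in edgeR, and 0.118 without KO line 72, where the log2 fold change was 0.63. The Wald test of DESeq2 gave an adjusted p of 0.00355 for the same counts, in a run that called 5.9% of all genes. With 3 lines against 3 the exact two-sided permutation test gave p = 0.1, the smallest it can give. Within lane 6 the mean of the KO lines was 0.43 above WT line 47 on the log2 scale, and within lane 7 KO line 41 was 0.59 above WT line 78.

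Cdkn2a showed the widest range of the 10 genes. Its levels were 73.7, 49.9 and 59.1 CPM in WT lines 36, 47 and 78. In KO lines 33, 41 and 72 they were 26.3, 42.7 and 99.0 CPM, from 2341, 2886 and 7636 counts. KO lines 33 and 41 were below every WT line and KO line 72 was above every WT line, a range of 3.77 times between the KO lines against 1.48 times between the WT lines. The SD of the log2 level over the KO lines, 0.97, was larger than that of 91.9% of the genes tested, and over the WT lines, 0.28, larger than that of 74.9%. The log2 fold change was -0.12 (SE 0.47, adjusted p = 0.927, edgeR) with an interval that reached from -1.26 to 1.02, so that a change of more than 2-fold in either direction lies within it. Without KO line 72 it was -0.81 (SE 0.25, unadjusted p = 0.0180, adjusted p = 0.182, edgeR). The direction was positive without WT line 36 (0.042), KO line 33 (0.22) or KO line 41 (0.037). Against WT line 47 in the same lane, KO line 33 was 0.92 lower and KO line 72 was 0.99 higher on the log2 scale.

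Cdkn2b, which encodes p15Ink4b, is the neighbour of Cdkn2a (chromosome 4, 89306299 to 89311039, minus strand). It was at 66.7, 52.3 and 57.0 CPM in the WT lines and at 52.1, 39.1 and 69.6 CPM in the KO lines, in the order 36, 47, 78 and 33, 41, 72 used throughout. The genotypes overlapped, with the lowest level in KO line 41 and the highest in KO line 72. Its log2 fold change was -0.13 (SE 0.21, adjusted p = 0.822, edgeR) and -0.35 without KO line 72 (SE 0.16, adjusted p = 0.310, edgeR). KO line 72 was thus the highest of the 6 lines for both genes of this locus, while the lowest line differed between them.

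Cdkn2c, which encodes p18Ink4c on chromosome 4 (109660876 to 109667189, minus strand), was at 16.0, 18.9 and 16.6 CPM in the WT lines and at 26.1, 19.6 and 16.5 CPM in the KO lines. KO line 33 alone stood well above the others, and KO line 72 lay among the WT lines. Cdkn2c had a log2 fold change of 0.27 (SE 0.18, adjusted p = 0.540, edgeR). Leaving out KO line 72 gave 0.42, with an interval from 0.051 to 0.79 and an adjusted p of 0.229 (edgeR).

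Of the CIP/KIP genes, Cdkn1a encodes p21, a direct target of p53 on chromosome 17 (29090976 to 29100727, plus strand). It was at 418, 349.7 and 317 CPM in the WT lines and at 314, 336 and 427 CPM in the KO lines. The ranges of the genotypes were almost the same, with both extremes in the KO lines. Mean levels were 362 ± 51.3 CPM in WT and 359 ± 59.9 CPM in KO (SD, n = 3 each). The log2 fold change was -0.011 (SE 0.15, adjusted p = 0.982, edgeR). The 95% interval ran from -0.39 to 0.36, and leaving out KO line 72 gave -0.14 (adjusted p = 0.604, edgeR). Its exons overlap AC167363.2 over 273 bases on the opposite strand, a gene that is not among those with read counts. Of its 50-base words, 8.49% also occurred in other genes, AC167363.2 among them, so some of its reads may have been assigned elsewhere.

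Cdkn1b, which encodes p27 on chromosome 6 (134920401 to 134925513, plus strand), was at 44.7, 45.4 and 50.2 CPM in the WT lines and at 56.0, 53.1 and 34.9 CPM in the KO lines. KO lines 33 and 41 were above every WT line and KO line 72 was below every WT line, the reverse of the arrangement of Cdkn2a. Cdkn1b had a log2 fold change of 0.038 (SE 0.18, adjusted p = 0.942, edgeR), and 0.23 without KO line 72 (interval 0.039 to 0.43, adjusted p = 0.212, edgeR). Cdkn1c, the remaining CIP/KIP gene and not among the 10, was at 73.0, 91.2 and 98.3 CPM in the WT lines and at 70.7, 113 and 5.73 CPM in the KO lines. KO line 72 was far below the rest for Cdkn1c, and its log2 fold change was -0.47 with an unadjusted p of 0.604 in edgeR. Cdkn3, a phosphatase that acts on CDKs, was at 1.546 to 3.24 CPM in the WT lines and 2.67 to 5.27 CPM in the KO lines (log2 fold change 0.75, unadjusted p = 0.0802, edgeR).

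In the p53 arm, Trp53 lies on chromosome 11 (69580359 to 69591873, plus strand). It was at 78.3, 87.7 and 75.8 CPM in the WT lines and at 96.9, 94.3 and 84.7 CPM in the KO lines. KO lines 33 and 41 were above every WT line, and KO line 72 lay between the WT lines. Mean levels were 80.6 ± 6.24 CPM in WT and 92.0 ± 6.41 CPM in KO (SD, n = 3 each). The log2 fold change was 0.19 (SE 0.09, unadjusted p = 0.0650, adjusted p = 0.374, edgeR). The value was 0.26 without KO line 72 (SE 0.08, adjusted p = 0.190, edgeR). Within lanes the KO lines were 0.047 (lane 6, mean) and 0.31 (lane 7) above the WT line. A processed copy of this gene, Trp53-ps, shares sequence with it, and 3.95% of its 50-base words occurred in other genes.

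Mdm2, on chromosome 10 (117688875 to 117710758, minus strand), was at 99.1, 88.4 and 92.8 CPM in the WT lines and at 74.0, 86.2 and 120.3 CPM in the KO lines. KO lines 33 and 41 were below every WT line and KO line 72 above every WT line, as for Cdkn2a. The means were 93.4 ± 5.43 and 93.5 ± 24.0 CPM (SD, n = 3 each). Its log2 fold change of 0.0012 (SE 0.18, adjusted p = 0.998, edgeR) thus averaged lines that lay on either side of the WT range. The value was -0.21 without KO line 72 (SE 0.09, unadjusted p = 0.0569, adjusted p = 0.286, edgeR).

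Rb1, on chromosome 14 (73183673 to 73325822, minus strand), was the other gene whose genotypes did not overlap. It was at 27.4, 26.2 and 25.3 CPM in the WT lines and at 22.4, 20.96 and 24.6 CPM in the KO lines. Each KO line was below each WT line, although WT line 78 and KO line 72 were close. Mean levels were 26.3 ± 1.07 CPM in WT and 22.7 ± 1.85 CPM in KO (SD, n = 3 each). The log2 fold change was -0.21, with a 95% interval from -0.43 to -0.0032. The unadjusted p was 0.0475 and the adjusted p 0.335 in edgeR, and the exact permutation test again gave 0.1. It was -0.27 when KO line 72 was left out (adjusted p = 0.176, edgeR). The exons of Rb1 overlap those of Rcbtb2 over 488 bases and of Lpar6 over 408 bases, both on the opposite strand, and the library kit named in the labels does not keep strand. Both neighbours were also lower in every KO line than in every WT line, with log2 fold changes of -0.38 for Rcbtb2 (adjusted p = 0.226, edgeR) and -0.44 for Lpar6 (adjusted p = 0.356, edgeR). Their part in the count of Rb1 was not tested.

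Glb1 encodes the lysosomal β-galactosidase and lies on chromosome 9 (114401076 to 114474898, plus strand). It was at 76.6, 70.7 and 59.6 CPM in the WT lines and at 56.7, 60.05 and 72.02 CPM in the KO lines. The genotypes overlapped from WT line 78 to KO line 72. Glb1 had a log2 fold change of -0.13 (SE 0.13, adjusted p = 0.685, edgeR), and -0.23 without KO line 72 (adjusted p = 0.352, edgeR). In bulk RNA, fewer cells of a type that is rich in lysosomes and less Glb1 RNA per cell cannot be told apart. Its exons share 165 bases with Tmppe on the same strand, whose log2 fold change was -0.11 (adjusted p = 0.655, edgeR).

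Within the KO genotype the 10 genes fell into opposite patterns. Cdkn2a, Cdkn1a, Mdm2 and Glb1 were lowest in line 33 and highest in line 72, with line 41 between. Cdkn2c, Cdkn2d, Cdkn1b and Trp53 had the reverse arrangement. Cdkn2b and Rb1 had their lowest KO level in line 41. KO line 72 was the highest of all 6 lines for 4 of the 10, where 26% of all genes tested were highest in that line, and the lowest of all 6 for 1 of the 10, against 25.4%. Genes that restrain division thus stood on both sides in line 72.

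The genes most like each member over the 6 lines were those with the highest Pearson correlation of log2 CPM among 12352 genes, a description over lines that share libraries and differ in depth and lane. For Trp53 they were Fanci, Diaph3 and Pbk (r = 0.999, 0.998 and 0.998), and 283 genes reached 0.95, the most of the 10. For Cdkn2d they were Naa10, Tubb4b and Mllt1 (0.996, 0.991 and 0.990), with 166 genes at 0.95. For Cdkn2a they were Sbds, Sumf1 and Slc9a8 (0.997, 0.997 and 0.995) and for Mdm2 Pcyox1, Fosl2 and Cdkl1 (0.996, 0.995 and 0.994). For Glb1 they were Pld3, Atp6v0a1 and Lamp1 (0.999, 0.997 and 0.995), all known from lysosomes. The p53 target Dcxr was among those of Cdkn1a, after Idnk and Bcas3 (0.989, 0.995 and 0.991). For Cdkn1b they were Cdyl, Eml4 and Mylk (0.996, 0.995 and 0.994), for Cdkn2b Tctn3, Dusp28 and Ilvbl (0.994, 0.989 and 0.989), for Cdkn2c Tinf2, Sart3 and Polg (0.993, 0.990 and 0.985) and for Rb1 Celsr3, Rtl5 and Plxnc1 (0.993, 0.985 and 0.984).

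The p53 target genes give a wider readout of the p53 arm, and the list includes Cdkn1a and Mdm2 themselves. Of 28 listed targets, 13 were higher and 15 lower in HAT1 KO, with a median log2 fold change of -0.016. None passed an adjusted p of 0.05 in edgeR, and 1 did with DESeq2, where 5.9% of all genes did. At an unadjusted p under 0.05, 2 were lower, against 8.77% of all genes, and 0 were higher, against 5.88%. Sesn1, which encodes a sestrin, was at 40.2, 43.2 and 45.0 CPM in the WT lines and at 28.2, 28.2 and 20.3 CPM in the KO lines. All its KO lines were below all its WT lines (log2 fold change -0.74, SE 0.14, adjusted p = 0.102, edgeR). Trp53inp1 was lower by a smaller margin with overlapping lines (-0.27, unadjusted p = 0.0449, edgeR). KO line 72 was the highest line for 15 of the 28 and the lowest for 7, against 26% and 25.4% of all genes.

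The targets were spread widely in KO line 72. The death receptor gene Fas was at 6.58, 5.55 and 7.66 CPM in the WT lines and at 6.58, 5.64 and 13.8 CPM in the KO lines. Pmaip1, which encodes Noxa, was at 14.0 to 34.5 CPM in the WT lines and at 18.8, 18.3 and 46.5 CPM in the KO lines. In the opposite direction, Eda2r was at 43.1 to 49.4 CPM in the WT lines and at 29.0, 41.4 and 11.1 CPM in the KO lines. These 3 were chosen after their values were seen, as examples of targets on either side of line 72. Among the targets with a positive fold change, the smallest p-values were those of Pidd1 and Phlda3, with log2 fold changes of 0.37 and 0.23 (unadjusted p = 0.145 and 0.175, edgeR). Without KO line 72 the median of the 28 was -0.11, with 9 higher and 19 lower, and without KO line 33 it was 0.081.

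**Figure D3:**
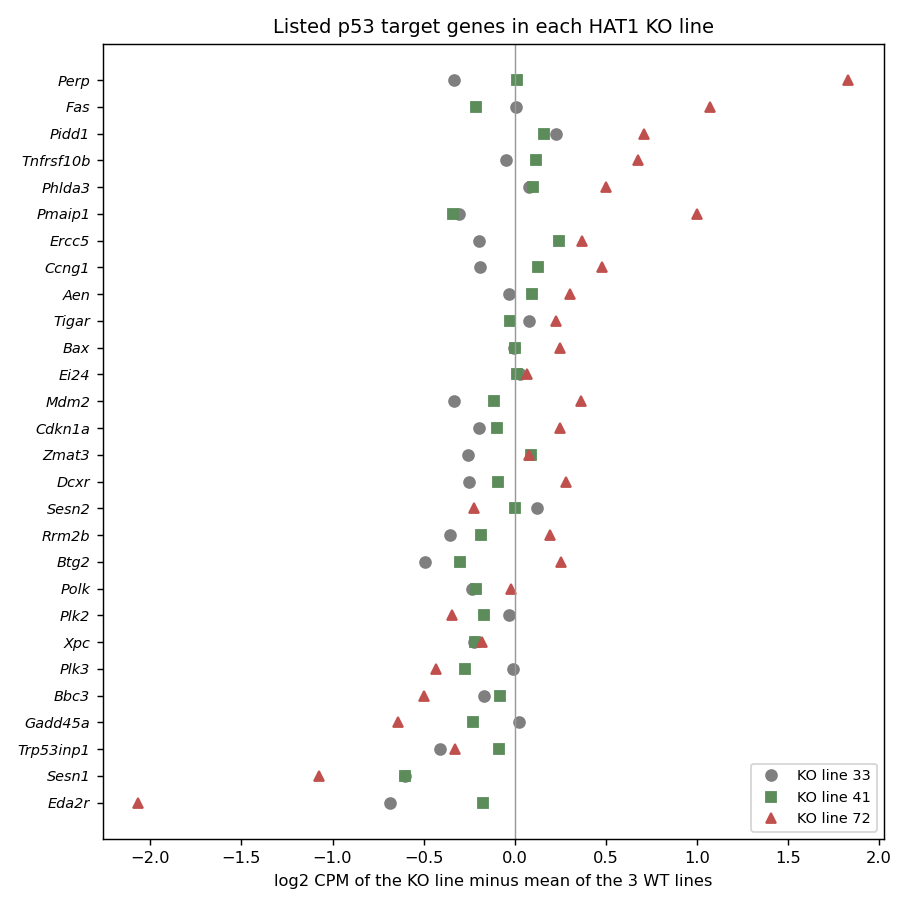
Log2 CPM of each of the 28 listed p53 target genes in KO line 33 (grey circles), KO line 41 (green squares) and KO line 72 (red triangles), minus the mean of the 3 HAT1 WT lines. KO line 72 is the highest of all 6 lines for 15 of the 28 genes and the lowest for 7, and its points span the widest range.

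Upstream of p53, 14 listed regulators had a median log2 fold change of 0.048 and none passed the adjusted threshold in edgeR or DESeq2. Hipk2, a kinase that phosphorylates p53, was the only 1 of the 14 at an unadjusted p under 0.05, and 8.77% of all genes were lower at that threshold. Its levels were 103, 99.5 and 89.2 CPM in WT against 70.3, 85.5 and 65.3 CPM in KO (log2 fold change -0.40, adjusted p = 0.218, edgeR). The others named by rule were Chek1 (0.45), Atr (0.17) and Trp53bp1 (-0.15), with unadjusted p from 0.0560 to 0.125 in edgeR. Of 15 listed regulators of the Ink4a and Arf locus, 8 were higher and 7 lower, with a median of 0.033, and none passed the adjusted threshold in edgeR or DESeq2. Ezh2, the methyltransferase of the Polycomb complex that silences the locus in young cells, was at 15.4, 20.2 and 16.7 CPM in the WT lines and at 24.6, 22.8 and 22.4 CPM in the KO lines (log2 fold change 0.41, unadjusted p = 0.0119, adjusted p = 0.211, edgeR). Ets1, Ets2 and Tbx2 had log2 fold changes of 0.31, -0.30 and -0.80 with unadjusted p from 0.0785 to 0.148 in edgeR. Ezh2 was higher in each KO line than in any WT line, and Cdkn2a was lower than in any WT line in 2 of the 3 KO lines. A link between the levels of these 2 genes was not tested.

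Downstream of the retinoblastoma protein, all 20 listed E2F target genes, which serve DNA replication and nucleotide synthesis, were higher in HAT1 KO. Their median log2 fold change was 0.45 and 14 had an unadjusted p under 0.05, where 5.88% of all genes were higher at that threshold. None passed an adjusted p of 0.05 in edgeR (lowest 0.124), and 6 did with DESeq2, where 5.9% of all genes did in either direction. The summed level was 749.9, 1026 and 804 CPM in the WT lines and 1282, 1197 and 1072 CPM in the KO lines, so WT line 47 and KO line 72 were the closest. Rrm2, a subunit of ribonucleotide reductase, was at 49.9, 73.9 and 53.5 CPM in WT and at 105, 98.3 and 143 CPM in KO (log2 fold change 0.96, adjusted p = 0.124, edgeR). Tk1, thymidine kinase, was at 15.9, 22.9 and 16.2 CPM in WT and at 30.2, 30.1 and 29.7 CPM in KO (0.71, adjusted p = 0.129, edgeR). The count of 14 was 7 without WT line 36, 7 without WT line 78, 8 without KO line 33, 16 without KO line 72 and 19 without WT line 47. It was 6 with lane as a term, and the median stayed between 0.35 and 0.62 in every alternative tried.

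The 16 listed mitotic genes were also all higher, with a median of 0.68 and 9 at an unadjusted p under 0.05, against 5.88% of all genes. Here the lines overlapped more. The summed level was 436, 697 and 454 CPM in the WT lines and 1025, 802 and 628 CPM in the KO lines, and KO line 72 was below WT line 47. Top2a and Ccnf, with log2 fold changes of 0.74 each (unadjusted p = 0.0111 and 0.0219, edgeR), were the only 2 of the 16 without overlap. Among all genes, 22% had no overlap in either direction. The count of 9 was 15 without KO line 72 or WT line 47, and 1 or 2 without any other line. With lane as a term it was 0. With DESeq2 1 of the 16 passed an adjusted p of 0.05, against 5.9% of all genes, and in edgeR none did.

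Of the 17 pocket proteins, E2F factors and their partners, 3 were higher and 2 lower at an unadjusted p under 0.05, against 5.88% and 8.77% of all genes. E2f7 and E2f8, the atypical E2F factors that repress replication genes and are themselves E2F targets, had log2 fold changes of 0.82 and 0.67 (unadjusted p = 0.0051 and 0.0056, edgeR), and no WT line reached any KO line. Rbl2, the pocket protein p130, was at 55.1, 50.1 and 49.1 CPM in WT and at 33.9, 46.4 and 43.8 CPM in KO, lower without overlap, as were Rb1 and 12.4% of all genes (-0.32, unadjusted p = 0.0472, adjusted p = 0.334, edgeR). None of the 17 passed the adjusted threshold in edgeR (2 with DESeq2, where 5.9% of all genes did). Among 10 cyclins and kinases of G1 and S phase, 9 were higher, against 51.5% of all genes, and 4 of these had an unadjusted p under 0.05, against 5.88%. None of the 10 passed the adjusted threshold in edgeR (2 with DESeq2, where 5.9% of all genes did). Ccne2 and Ccne1, the cyclins E, had log2 fold changes of 0.54 and 0.60 (adjusted p = 0.119 and 0.183, edgeR) without overlap, and Cdk6, a partner that INK4 proteins bind, was the 1 that was lower (-0.085, unadjusted p = 0.422, edgeR).

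**Figure D4:**
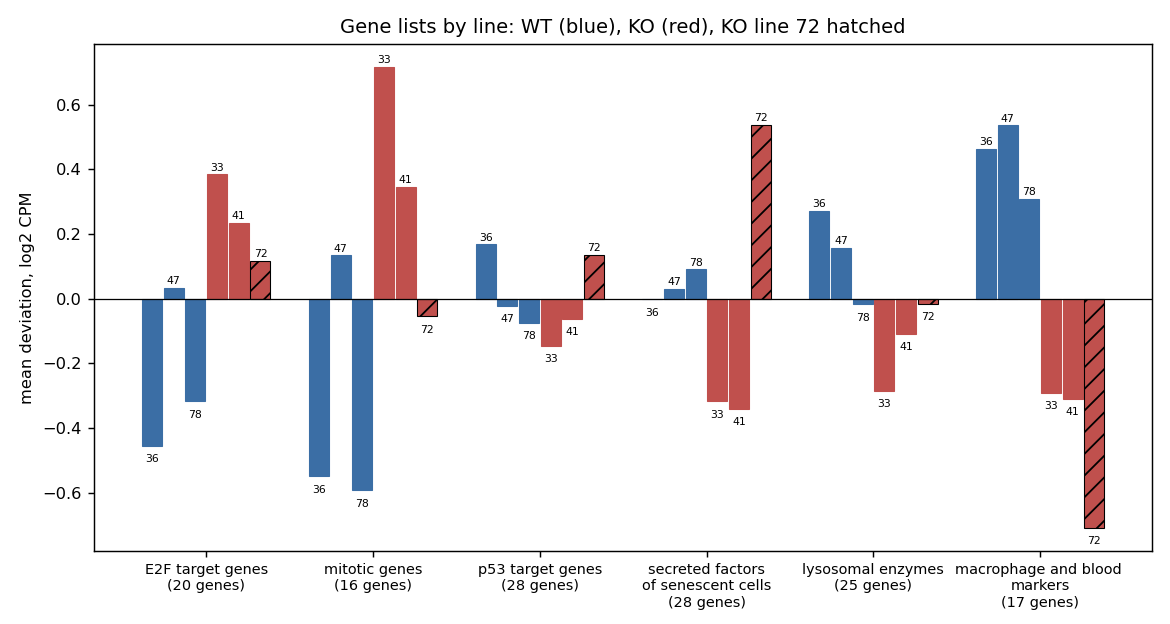
Mean deviation of the listed genes from their average over the 6 lines, in log2 CPM, for each WT line (blue) and KO line (red, line 72 hatched). E2F target genes are highest in the 3 KO lines, p53 targets are highest in WT line 36 and KO line 72, secreted factors are highest in KO line 72, and macrophage and blood markers are lower in all 3 KO lines.

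Secreted factors of senescent cells were set beside the inhibitors because both are used to recognise senescence. Of 28 tested, 16 were higher and 12 lower, with a median of 0.073. None passed an adjusted p of 0.05 in edgeR (1 with DESeq2, where 5.9% of all genes did). With KO line 72 left out, 8 lay above 0 and 20 below, with a median of -0.079. In that fit 6 of the 28 were lower at an unadjusted p under 0.05, where 18.5% of all genes passed it in either direction. KO line 72 was the highest line for 12 of the 28, against 26% of all genes, and the lowest for 9, against 25.4%. Mmp13, a collagenase, was at 8.99, 8.40 and 5.24 CPM in the WT lines and at 2.13, 5.12 and 128 CPM in the KO lines. KO line 72 was far above and the other KO lines below every WT line, so the log2 fold change was 2.58 with line 72 and -1.05 without it (unadjusted p = 0.124 and 0.0502, edgeR). Areg, at or below 0.467 CPM in each line, had a log2 fold change of 1.31 (unadjusted p = 0.0884, edgeR). Lower at an unadjusted p under 0.05 were 4 of the 28, against 8.77% of all genes. Named by rule from these were Il1b, at 0.915 to 0.930 CPM in WT and 0.1296 to 0.337 CPM in KO (log2 fold change -2.08, adjusted p = 0.106, edgeR), and Hgf, with a log2 fold change of -0.33 (adjusted p = 0.202, edgeR). Il1b is mainly a macrophage product, and the markers of those cells were lower in the KO lines. Whether the 2 are linked was not tested.

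The chromatin proteins known to be lost in senescence were all higher in HAT1 KO, 6 of 6, with a median of 0.48. None passed the adjusted threshold in edgeR (1 with DESeq2, where 5.9% of all genes did). At an unadjusted p under 0.05, 2 were higher, against 5.88% of all genes. These were Lbr and Ezh2, with log2 fold changes of 0.53 and 0.41 (adjusted p = 0.174 and 0.211, edgeR). All 6 were higher at that threshold without KO line 72, where 18.5% of all genes passed it in either direction. Lmnb1, which encodes lamin B1, was at 30.9, 43.4 and 29.3 CPM in WT and at 70.5, 50.2 and 32.7 CPM in KO, so KO line 72 lay among the WT lines. Lmnb1 was named after its values were seen.

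Lysosomal genes other than Glb1 were mostly lower in HAT1 KO. Of 25, 23 were lower and 8 of these had an unadjusted p under 0.05, against 8.77% of all genes, with a median of -0.22. None passed an adjusted p of 0.05 in edgeR (6 with DESeq2, where 5.9% of all genes did in either direction). Man2b1 was at 355, 329.9 and 278 CPM in WT and at 204, 221 and 199 CPM in KO (-0.63, adjusted p = 0.0783, edgeR). Fuca1 had a log2 fold change of 0.058 with an unadjusted p of 0.763 in edgeR. All 25 were lower without KO line 72, and 13 had an unadjusted p under 0.05, where 18.5% of all genes did in either direction. With a term for high Y-linked counts the median was -0.045 and the count of 8 was 4. Glb1, with -0.13, was closer to 0 than the median of the list.

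Macrophages, which are rich in lysosomal enzymes, left RNA in every line. All 17 tested macrophage and blood markers were lower in HAT1 KO, 16 of them without overlap (12.4% of all genes were lower without overlap), and 8 passed an adjusted p of 0.05 in edgeR, beside 0.528% of all genes. Their summed level was 6516, 6887 and 6103 CPM in the WT lines and 3623, 3798 and 2934 CPM in the KO lines. Lyz2, lysozyme, led them at 2938 ± 172 CPM in WT and 1462 ± 173 CPM in KO (SD, n = 3 each, log2 fold change -1.01, adjusted p = 0.0357, edgeR). The other 7 were Ptprc, Cd53, Adgre1, Csf1r, Fcer1g, Tyrobp and Itgam, with log2 fold changes from -0.91 to -0.66. Without KO line 72 there were 5 that passed, and without any other single line 0, while 14 to 17 had an unadjusted p under 0.05 in those fits. With lane as a term 0 passed the adjusted threshold in edgeR and 14 were lower at an unadjusted p under 0.05, and with a term for high Y-linked counts these counts were 0 and 10. The part of these cells in the levels of Glb1, the lysosomal genes and Il1b was not tested.

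Markers of other cell types were mostly at low levels. The summed level of 6 endothelial markers was 9.19 to 12.7 CPM per line. Of the 5 tested, Pecam1 and Cdh5 were lower in KO (log2 fold changes -1.63 and -0.85, unadjusted p = 0.0069 and 0.0221, edgeR). Tek and Esam were at 0.084 and 0.056. The 7 epithelial markers summed to 1.09 to 2.49 CPM per line. Only 2 of them were tested, Cdh1 (log2 fold change 1.27) and Krt18 (-2.16), each with an unadjusted p above 0.06 in edgeR. Of 5 muscle and neural markers, 3 were higher and 2 lower (lowest log2 fold change -0.35). Tubb3 (0.44, unadjusted p = 0.0403, edgeR) was the only 1 higher at an unadjusted p under 0.05, against 5.88% of all genes. Map2 reached 153 CPM in KO line 72 against 12.5 to 52.0 CPM in the other lines. The mean log2 deviation of the 5 was nevertheless lowest in that line (-0.74). Of 11 fibroblast markers, 5 were higher and 6 lower, with a median log2 fold change of -0.052 and a highest value of 0.82. Only Thy1 was lower at an unadjusted p under 0.05 (-0.31, unadjusted p = 0.0350, edgeR), against 8.77% of all genes, and 0 were higher. KO line 72 was the lowest line for 6 of the 11, against 25.4% of all genes.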

How the data were processed

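The authors deposited one table of raw read counts per gene for the 6 pMEF libraries, with no normalization. It also holds the authors' own comparison (log2 fold change, log2 CPM, F, p-value and q-value), which was not used. The submitters' processing notes name mm10 and edgeR. The aligner, counter, annotation and use of strand are not given in the sources used here. The number of sample columns left without a sample was 0, no pair of libraries held identical counts, and 24 symbols that had been turned into dates were restored from the Ensembl identifier. All members were matched by identifier to GENCODE M21 on GRCm38, whose assembly matches mm10.

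The 10 members, the 17 gene lists and the tests were chosen with earlier results of these data known. The named genes were the members, Hat1, genes of each list past an adjusted p of 0.05 or otherwise the 2 with the smallest p in each direction, and for each member the 3 genes most like it over the lines (mean of at least 1 CPM). Listed genes without a row (Csf2, Hbb-bs, Hba-a1, Cldn5, Tie1, Myod1 and Myog) were not analysed here, Rfwd2 was matched to Cop1, and the 4 Y-linked genes served as a check of the lines. Some genes that the rule names are not reported here.

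The test was edgeR 4.0.16 (R 4.3.3) with filterByExpr at its defaults, which kept 14773 genes, TMM scaling, glmQLFit and glmQLFTest with genotype as the only term, and Benjamini-Hochberg adjustment over the tested genes at a threshold of 0.05. Tests were two-sided. Standard errors are the fold change divided by the square root of F. Levels are TMM-scaled CPM, and log2 CPM used a prior count of 2. Lengths are the union of GENCODE exons. The fit was tested on simulated counts before use. Depth was 67720628 to 98786746 counts per library, so the spread between lines (common dispersion 0.0747) and not counting error limits the members. Alternatives were relative log expression size factors, library size alone, DESeq2 1.42.0, voom with sample quality weights in limma 3.58.1, no filter, a filter at a mean of 50 counts, lane or high Y-linked counts (sum above 1000) as a term, and leaving out each line.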

Additional observations from a re-analysis of the deposited data

How the results depend on the processing

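The 10 members' log2 fold changes were recomputed under 14 alternatives, 140 values in all, of which 121 kept their direction and their side of the threshold. Only Cdkn2d gained a call, in DESeq2 (0.58, adjusted p = 0.00355), which made the number of members past an adjusted p of 0.05 there 1 in place of 0. That number was 0 in every fit without 1 line, and adjusted p-values of Cdkn2d ran from 0.00355 to 0.736 over the alternatives. A change of direction was found for Cdkn1a with no filter (0.0050), lane as a term (0.083) or a term for high Y-linked counts (0.18), for Cdkn1b with that last term (-0.064), and for Glb1 with it (0.079). Mdm2 turned negative with library size alone (-0.00034) and with voom (-0.14). Without 1 line the log2 fold change ran from -0.14 to 0.11 for Cdkn1a, -0.087 to 0.23 for Cdkn1b, -0.81 to 0.22 for Cdkn2a, -0.35 to 0.055 for Cdkn2b and -0.21 to 0.15 for Mdm2. All of these had adjusted p-values above 0.05, and the causes were not tested. Cdkn2c, Cdkn2d, Trp53 and Rb1 kept their direction in all 14 alternatives. The number of all genes past an adjusted p of 0.05 was 78 with edgeR, 871 with DESeq2, 267 with voom, 58 with relative log expression size factors, 46 with no filter, 2 with lane as a term and 0 with the term for high Y-linked counts, and 0 to 73 without 1 line. For the gene lists, 770 of 896 values kept within the spread between lines or within 1.5 times the count. By the longest transcript in place of the exon union, Mdm2 was 4 and Glb1 6 in the order per kilobase, in place of 6 and 4. No paired analysis was possible because the genotypes share no replicate numbers.

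With 3 lines a genotype, the 95% intervals of Cdkn1a, Cdkn1b, Mdm2 and Cdkn2b reach at least 0.36 from 0 on both sides on the log2 scale, and that of Cdkn2a reaches beyond 1, so smaller differences could not be detected. Lane 8 held 1 WT line, and the 2 lines with high Y-linked counts were both WT, so a term for either is estimated from few lines. With the term for high Y-linked counts Cdkn2d was 0.65 (adjusted p = 0.340) and Rb1 -0.16.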
